A study of Mus musculus with 6 samples.

Results

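The genes described here mark endothelium, the cell layer that lines blood vessels. They are 10 genes, of which 8 are expressed in most endothelium (Pecam1, Cdh5, Kdr, Flt1, Tek, Tie1, Eng and Emcn) and 2 mark the leaky sinusoids of the liver and some related vessels (Stab2 and Lyve1). They were chosen by name, and every probe set annotated to one of them was taken, which gave 16 of the 45037 probe sets and 10 of the 18193 genes measured. No probe set named one of them together with another gene. The samples were 3 hearts labelled Sp3 knockout and 3 labelled wildtype, each the total RNA of a single E12.5 mouse heart on 1 array, lettered a to c within its genotype. Sp3 belongs to the zinc finger proteins that read GC-rich DNA near gene starts, and the title calls the mutants null. The part of Sp3 that was deleted, the strain, the litters and the sex of the fetuses are not given in the sources used here.

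Endothelial cells read growth signals through receptor tyrosine kinases. VEGF acts through Kdr, while Flt1 binds VEGF tightly and, also as a soluble form, limits what reaches Kdr. Angiopoietins act through Tek, with Tie1 as its partner. Pecam1 and Cdh5 hold neighbouring cells together, Eng is a co-receptor for ligands of the BMP and TGF-beta family, and Emcn is a sialomucin of the cell surface. In fetal liver, vessels branch into sinusoids whose lining takes up waste from the blood through scavenger receptors such as Stab2. Lyve1 binds hyaluronan and is also made by lymphatic endothelium and by some tissue macrophages.

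The promoters are shown first, because Sp3 binds the GC box, whose letters are GGGCGG on one strand and CCGCCC on the other. RefSeq entries of build GRCm38.p6, each running 300 bases around a gene start, were found for 7 of the 10 genes. The letters were present in 2 of these 7, and in 35.7% of the 32851 promoters in the same collection. Overlapping matches on both strands were counted. Flt1, on the minus strand of chromosome 5 at chr5:147725962-147726261, held 3, and Kdr, on the minus strand at chr5:75978406-75978705, held 2. Stab2, on the minus strand of chromosome 10 at chr10:87007893-87008192, held 0 and stands here for the genes without them. Capitals mark the matches. The Flt1 promoter held 29 CG dinucleotides and that of Kdr 19, against 2 to 7 in those of Emcn, Tek, Stab2, Eng and Tie1. A match describes the letters in this window and is not a site shown to be bound.
Flt1: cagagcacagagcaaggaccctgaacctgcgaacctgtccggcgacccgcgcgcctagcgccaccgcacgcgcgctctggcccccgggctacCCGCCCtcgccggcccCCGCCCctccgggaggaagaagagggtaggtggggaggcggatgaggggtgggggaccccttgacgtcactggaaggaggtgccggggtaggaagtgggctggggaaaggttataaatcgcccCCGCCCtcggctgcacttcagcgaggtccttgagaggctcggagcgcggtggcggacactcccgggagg
Kdr: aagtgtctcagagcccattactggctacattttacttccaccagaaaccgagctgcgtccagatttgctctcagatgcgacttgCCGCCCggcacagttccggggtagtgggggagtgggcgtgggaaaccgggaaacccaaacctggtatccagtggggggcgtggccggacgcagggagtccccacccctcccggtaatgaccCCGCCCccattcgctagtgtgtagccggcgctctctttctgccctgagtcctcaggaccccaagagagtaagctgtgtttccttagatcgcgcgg
Stab2: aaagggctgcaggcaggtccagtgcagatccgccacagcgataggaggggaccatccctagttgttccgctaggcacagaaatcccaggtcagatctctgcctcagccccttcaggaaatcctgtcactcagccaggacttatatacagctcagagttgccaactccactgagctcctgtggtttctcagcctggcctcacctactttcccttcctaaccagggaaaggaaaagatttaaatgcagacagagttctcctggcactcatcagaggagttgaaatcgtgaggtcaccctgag

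All levels below are log2 values of the deposited intensity, on which a step of 1 multiplies the intensity by 2. Differences are Sp3 knockout minus wildtype and were tested with limma over all 45037 probe sets, with Benjamini-Hochberg adjusted p under 0.05 as the threshold. Sp3 itself read 8.39, 8.34 and 8.61 in knockout hearts a to c, against 9.87, 9.77 and 9.54 in wildtype, a difference of -1.27 with limma adjusted p = 0.00254. Whether this probe set covers the deleted part is not known. Array medians lay between 22.5 and 26.7 intensity units, and every pair of arrays correlated at 0.888 or more over all probe sets. The tissue label was checked against marker lists. In all 6 arrays hepatocyte genes were bright, with a list median at the 96.8th percentile of genes, while the cardiomyocyte list had its median at the 34.5th, with 16 of 20 genes below the 50th. Actc1, cardiac actin, was present at 8.69 in knockout and 7.61 in wildtype as group means, below Alb, at 13.16 in knockout and 13.34 in wildtype. These levels go against a sample of heart alone, and the samples are called hearts here only as labelled. Endocardium markers lay at the 49.0th percentile, with Nfatc1, a transcription factor of the endocardium, at 5.68 ± 0.52 in knockout hearts and 5.53 ± 0.25 in wildtype hearts (SD over 3 arrays each). The 8 pan-endothelial genes had a list median at the 57.7th percentile and Stab2 and Lyve1 at the 74.7th. Brightness also depends on a probe set's sequence, so these are descriptions of lists. In whole-tissue RNA, fewer cells of a type and less RNA per cell cannot be told apart.

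No endothelial or sinusoidal gene passed the test between the genotypes. With limma 0 of the 16 probe sets passed, where 0.0311% of all probe sets did, with 0.0155% higher and 0.0155% lower, and their adjusted p lay between 0.608 and 1.00. At an unadjusted p under 0.05 there were 3 of 16, namely both probe sets of Lyve1 and 1 of Flt1, where the share over all probe sets was 7.16%, of which 3.27% were higher and 3.89% lower. Of the 16 differences 10 were above 0, where 52.2% of all were. In 0 of the 16 did the 2 genotypes fail to overlap, where 13.0% of all probe sets had that separation. The median difference was 0.13 over the 16 probe sets and 0.02 over all. At the brightest probe set of each gene the differences ran from -0.61 in Lyve1 to 0.76 in Flt1, with 6 above 0 and 4 below, where 47.5% of all genes were above 0.

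**Figure D1:**
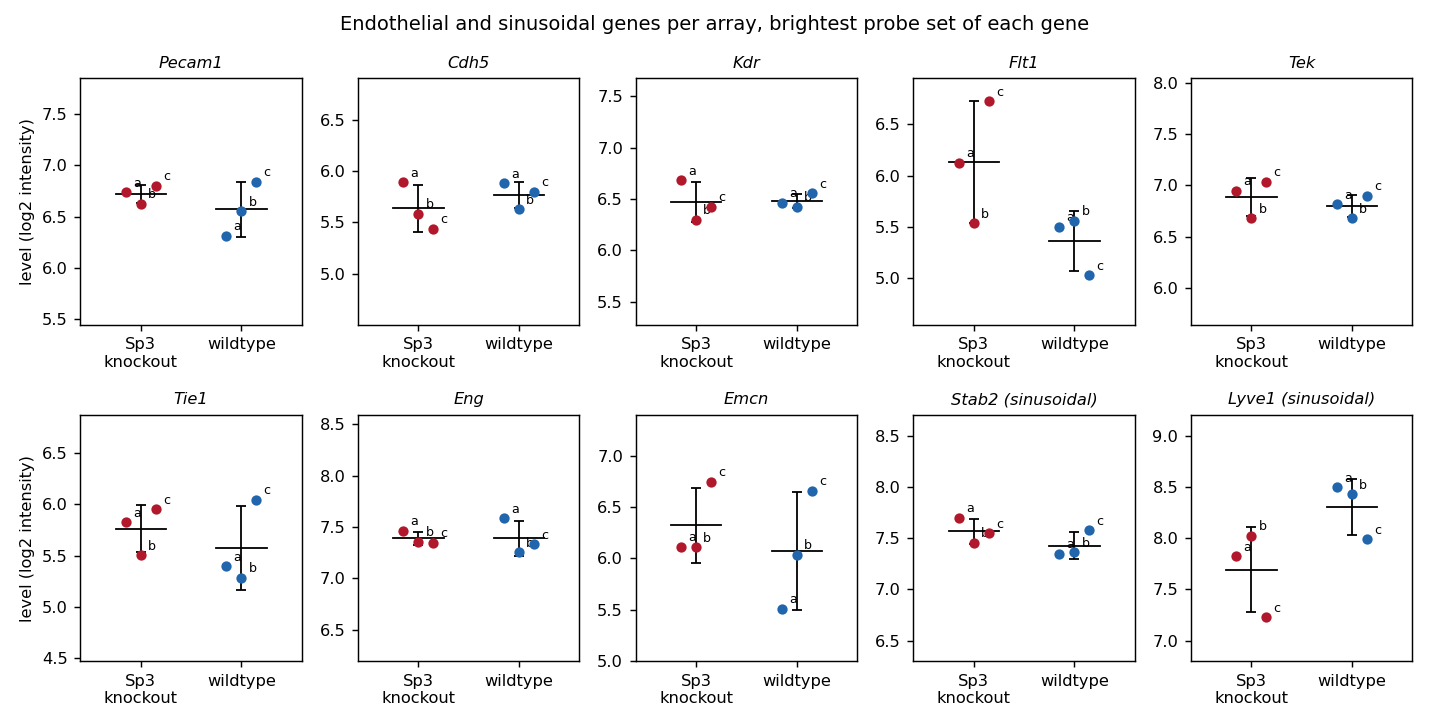
Level of the brightest probe set of each gene, in log2 intensity, in Sp3 knockout (left, red) and wildtype (right, blue) arrays lettered a to c. Lines are group means and bars the SD of 3 arrays. Each panel spans the same width of log2 units. The groups overlap in all 10 panels, and Lyve1 and Flt1 stand furthest apart.

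The 2 junction proteins had differences close to 0. Pecam1, an adhesion molecule of endothelial contacts also carried by platelets and leukocytes, read 6.74, 6.63 and 6.80 in knockout hearts a to c, against 6.31, 6.55 and 6.84 in wildtype hearts a to c. The knockout arrays lay inside the range of the wildtype ones, and the difference of 0.15 had a 95% interval from -0.26 to 0.57. Leaving out wildtype a gave 0.02, and leaving out wildtype c gave 0.29. Cdh5, the cadherin of endothelial junctions, read 5.89, 5.58 and 5.44 in knockout, against 5.88, 5.63 and 5.80 in wildtype, with a difference of -0.13 and an interval from -0.65 to 0.38. Knockout a lay at the top of all 6 arrays and knockout c at the bottom, and with 1 array left out the difference ran from -0.26 without knockout a to -0.03 without knockout c. Its other probe set was dim, between 3.13 and 4.16 over the 6 arrays, and differed by 0.25 with an interval from -0.98 to 1.48. That interval is the widest of the 16 probe sets.

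Among the VEGF receptors, Kdr had a difference near 0 and the probe sets of Flt1 did not read alike. Kdr, the main signalling receptor, read 6.68, 6.30 and 6.42 in knockout, against 6.47, 6.43 and 6.55 in wildtype. The difference of -0.01 had an interval from -0.42 to 0.39, which in folds is 0.747 to 1.31. The brightest probe set of Flt1 read 6.13, 5.54 and 6.72 in knockout hearts a to c, against 5.50, 5.56 and 5.03 in wildtype. Knockout a and c lay above all wildtype arrays and knockout b among them. The difference was 0.76 with an interval from 0.10 to 1.43, and limma adjusted p = 0.665. Without knockout c it was 0.47, and without knockout b 1.06.

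The 3 dimmer Flt1 probe sets differed by 0.33, 0.19 and -0.06, each with an interval that spans 0. In knockout c they stood at 5.76, 5.32 and 5.02, the highest of the 3 knockout arrays at each, as at the brightest probe set. In wildtype c they stood at 4.49, 4.01 and 4.54, where the first is close to the other wildtype arrays and the other two are the lowest of all 6. Averaging the 4 probe sets gave a difference of 0.31. Which transcript forms of Flt1 each probe set reads is not given in the files.

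The angiopoietin receptors followed one another across the arrays. Tek read 6.95, 6.68 and 7.03 in knockout, against 6.82, 6.68 and 6.90 in wildtype, with a difference of 0.09 and an interval from -0.29 to 0.47. Tie1, its partner, read 5.83, 5.51 and 5.95 in knockout, against 5.40, 5.29 and 6.05 in wildtype, with a difference of 0.19 and an interval from -0.40 to 0.77. Leaving out wildtype b gave 0.04 for Tie1, and leaving out wildtype c gave 0.42. For Tek the lowest value was 0.01, with knockout c left out, and the highest 0.19, with knockout b left out. In both genes array c was the highest of its genotype and array b the lowest.

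Eng and Emcn, a co-receptor and a surface mucin, also overlapped between genotypes. Eng read 7.47, 7.36 and 7.35 in knockout, against 7.58, 7.26 and 7.33 in wildtype, a difference of -0.0006 with the narrowest interval of the pan-endothelial probe sets, from -0.33 to 0.33. Its other probe set differed by 0.11. Emcn read 6.11, 6.11 and 6.75 in knockout, against 5.51, 6.04 and 6.66 in wildtype, a difference of 0.25 with an interval from -0.38 to 0.89. Both c arrays were high in Emcn and wildtype a was low, so the spread within wildtype (SD 0.58) was wider than the difference between the genotypes. Without wildtype a the difference was -0.03.

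**Figure D2:**
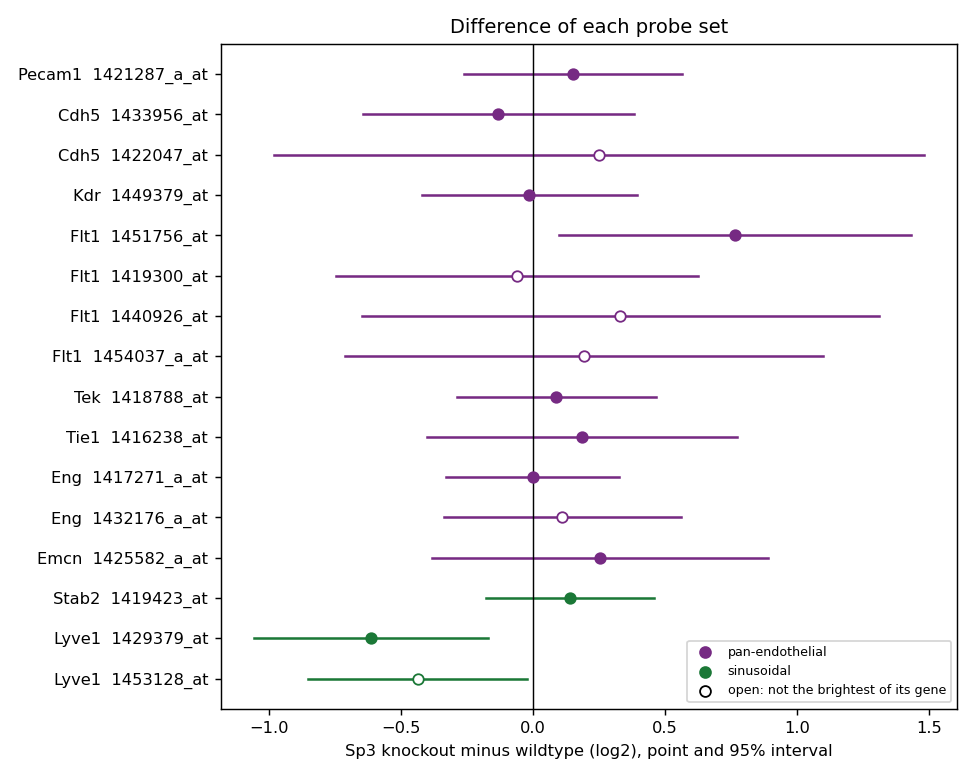
Difference of each of the 16 probe sets, Sp3 knockout minus wildtype in log2 units (horizontal axis), with the 95% interval of limma. Filled points are the brightest probe set of a gene, violet pan-endothelial and green sinusoidal. Most intervals include 0, and those of both Lyve1 probe sets (below 0) and 1 Flt1 probe set (above 0) do not, although none passed after adjustment.

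The 2 sinusoidal genes did not move together. Stab2, the scavenger receptor for hyaluronan, read 7.70, 7.46 and 7.55 in knockout hearts a to c, against 7.35, 7.36 and 7.58 in wildtype. Knockout a was above the wildtype range and the other two were within it. The difference of 0.14 had an interval from -0.18 to 0.46, or 0.883 to 1.38 in folds, with limma adjusted p = 0.851.

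Lyve1 was lower in most knockout arrays. It read 7.82, 8.02 and 7.23 in knockout hearts a to c, against 8.50, 8.43 and 7.99 in wildtype. Knockout a and c lay below all wildtype arrays, and knockout b lay just above wildtype c. The difference was -0.61 with an interval from -1.06 to -0.17, which is 0.653-fold (0.480 to 0.887), and limma adjusted p = 0.608. The other Lyve1 probe set read 7.78, 7.77 and 7.35 in knockout, against 8.29, 8.27 and 7.65 in wildtype, a difference of -0.44. Both read RNA of 1 gene on the same arrays, so they are not independent readings. Without knockout c, the differences of the 2 probe sets were -0.38 and -0.30, and without knockout b that of the brighter one was -0.78.

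Set against the pan-endothelial genes, the gap belonged to Lyve1. Levels were first expressed relative to each probe set's mean over the 6 arrays. The mean of the 8 pan-endothelial genes was then 0.14, -0.12 and 0.23 in knockout hearts a to c, against -0.15, -0.16 and 0.06 in wildtype. Lyve1 minus that mean came to -0.32, 0.15 and -0.997 in knockout hearts, against 0.65, 0.59 and -0.07 in wildtype, so the genotypes overlapped through knockout b and wildtype c. Stab2 minus the same mean stayed between -0.17 and 0.08 in all 6 arrays, with group means of -0.01 in knockout and 0.01 in wildtype. For the mean of Stab2 and Lyve1 the gap came to -0.13, 0.11 and -0.58 in knockout hearts, against 0.32, 0.30 and -0.03 in wildtype, and the difference of the means was -0.40 with all arrays and -0.21 without knockout c. No p is given for these values, because they are scores over chosen genes.

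Macrophage markers as a list were lower in knockout arrays, and lowest in knockout c, as Lyve1 was. Of the 15 genes of the list, 13 had a difference below 0, with a median of -0.51 where that of all genes was -0.02. After adjustment 0 of them passed, where 0.0495% of all genes did. At an unadjusted p under 0.05 there were 7 of 15, all below 0, where 8.71% of all genes were under it, 3.2% higher and 5.51% lower. The summed intensity of the 15 genes was 2250, 2283 and 1396 in knockout hearts a to c, against 2665, 2966 and 2651 in wildtype. Knockout c was lowest here, as for Lyve1. The list's relative level was -0.08, -0.02 and -0.72 in knockout hearts, against 0.08, 0.52 and 0.22 in wildtype. On that level wildtype a was the lowest wildtype array, while it was the highest for Lyve1. Without knockout c the list median was -0.33. Csf1r, the receptor for the main macrophage growth factor, averaged 9.07 ± 0.29 in knockout hearts and 9.58 ± 0.15 in wildtype hearts (SD over 3 arrays each). Lyz2, a lysozyme of myeloid cells, averaged 8.46 ± 0.72 in knockout hearts and 8.86 ± 0.40 in wildtype hearts. Mrc1, a scavenger receptor that macrophages and sinusoidal endothelium both carry, read 7.63, 7.77 and 7.27 in knockout, against 8.05, 8.06 and 7.72 in wildtype, with a difference of -0.39. Its arrays stood in nearly the order of those of Lyve1. Mrc1 was singled out after its values were seen. Vsig4 and Cd14 of this list were dim, with means of 1.38 and 1.72 in knockout and 0.67 and 3.07 in wildtype. Of the 15, 6 had genotypes that did not overlap, Csf1r among them, where 15.1% of all genes had that separation. The part of macrophages in the Lyve1 difference was not tested.

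**Figure D3:**
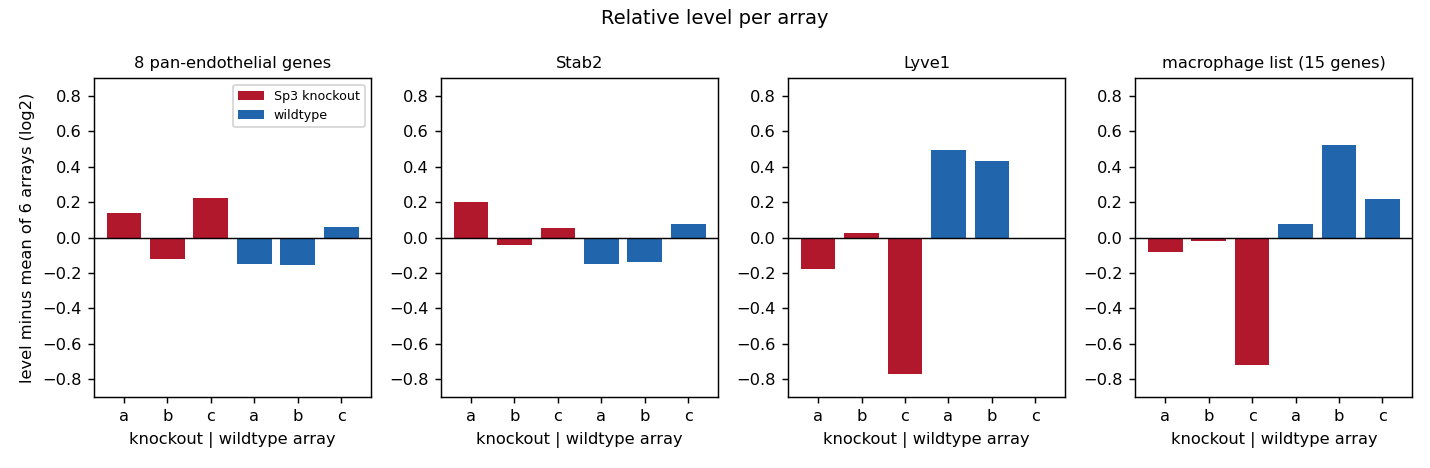
Relative level per array, in log2 units against the mean of all 6 arrays, for the mean of the 8 pan-endothelial genes, Stab2, Lyve1 and the mean of the 15 macrophage genes. Bars are single arrays, Sp3 knockout (red) left of wildtype (blue). Knockout c is lowest for Lyve1 and for macrophage genes, and it is the highest for the pan-endothelial genes.

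Genes of the sinusoidal lining lay on both sides of 0. Of 27 genes in a liver sinusoid list, Stab2 and Lyve1 among them, 16 lay above 0 and 11 below. The list median was 0.07 (-0.06 as the mean of each gene's probe sets). In this list 0 genes passed, where 0.0495% of all genes did, 0.022% higher and 0.0275% lower. At an unadjusted p under 0.05 there were 4 of 27 above 0 and 3 below, where 3.2% of all genes were higher and 5.51% lower. Lyve1, described above, was 1 of the 3 below. Aqp1, a water channel of sinusoids that red cells also carry, read 7.38, 7.76 and 7.97 in knockout hearts a to c, against 8.58, 8.32 and 8.77 in wildtype. Its difference of -0.85 had limma adjusted p = 0.201, and the genotypes did not overlap. That separation was found in 6 of the 27 genes of the list, where 15.1% of all genes had it. Erythroid genes had 11 of 13 below 0, with summed intensities from 34990 to 47780 in knockout and 43350 to 49390 in wildtype, and their part in the Aqp1 difference was not tested. Flt4, the VEGF receptor of lymphatic and sinusoidal endothelium, read 7.38, 6.77 and 7.05 in knockout, against 6.49, 6.35 and 6.58 in wildtype. Its difference was 0.59 with limma adjusted p = 0.601, but 0.13 as the mean of its probe sets. Dnase1l3, Cd209b and Cd4 of this list were dim, with group means between 0.53 and 1.75.

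The lists of other vessel pathways, some including genes described above, also held no gene that passed, where 0.0495% of all genes did. In the VEGF list, Kdr and Flt1 among its genes, 7 of 10 lay above 0, with a median of 0.20. Of the 10, 3 had an unadjusted p under 0.05, Flt1 among them, all above 0, where 3.2% of all genes were. Vegfa, the ligand of Kdr and Flt1, read 7.32, 7.02 and 7.96 in knockout, against 6.63, 6.56 and 6.69 in wildtype. Its difference was 0.81 with limma adjusted p = 0.499, and 0.57 as the mean of its probe sets. The genotypes did not overlap in 2 of the 10 genes, Vegfa among them, where 15.1% of all genes had that separation. Knockout c was highest for Vegfa, as for Flt1. Of 17 genes in the endoglin and BMP9 list, 15 lay above 0 with a median of 0.22, although Eng itself differed by -0.0006. At an unadjusted p under 0.05 the list held 1 gene, above 0, where 3.2% of all genes were higher. That gene was Smad1, which carries BMP signals to the nucleus, with means of 7.77 ± 0.13 in knockout hearts and 7.32 ± 0.27 in wildtype hearts. Its difference was 0.45, but 0.21 as the mean of its probe sets. Smad4, the shared partner of the receptor Smads, averaged 9.06 ± 0.10 in knockout hearts and 8.80 ± 0.20 in wildtype hearts. In this list 3 of the 17 genes had genotypes that did not overlap, where 15.1% of all genes had that separation.

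In the angiopoietin and Tie list, which includes Tek and Tie1, 6 of 11 lay above 0, with a median of 0.06. The list held 0 genes under an unadjusted p of 0.05, where 8.71% of all genes were. Its leading genes were Dok2, an adaptor that binds Tek, with a difference of -0.42, and Foxo1, a transcription factor restrained by Tek signalling, with 0.35, or -0.08 as the mean of its probe sets. Among 26 measured junction and surface genes, Pecam1, Cdh5 and Emcn included, 19 lay above 0, with a median of 0.14. Of the 26, 4 had an unadjusted p under 0.05, all above 0, where the share over all genes was again 3.2%. Cav1, the coat protein of caveolae, read 7.42, 7.16 and 7.11 in knockout, against 6.80, 6.29 and 6.50 in wildtype, a difference of 0.70 with limma adjusted p = 0.481. The next of this list, and of the transcription factors below, was Sox18, a regulator of endothelial and lymphatic cells, with 0.52 and limma adjusted p = 0.630. Neither gene's arrays overlapped between genotypes. That separation was found in 7 of the 26 junction and surface genes, where 15.1% of all genes had it.

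Of 24 endothelial transcription factors 15 lay above 0, with a median of 0.14. For 7 the unadjusted p was under 0.05, 5 above 0 and 2 below, where 3.2% of all genes were higher and 5.51% lower. The genotypes did not overlap in 11 of the 24, where 15.1% of all genes had that separation. Lmo2, a bridging protein of blood and vessel regulators, averaged 10.71 ± 0.16 in knockout hearts and 11.03 ± 0.10 in wildtype hearts, a difference of -0.32 with limma adjusted p = 0.541. The Notch list, which patterns arteries, had 12 of 15 above 0 with a median of 0.22. For 2 of the 15 the unadjusted p was under 0.05, all above 0, where 3.2% of all genes were higher. In 3 of the 15 the genotypes did not overlap, where 15.1% of all genes had that separation. Hes1, a target of Notch, differed by 0.49 and Notch3, a receptor of the vessel wall, by 0.41. Wildtype b had the lowest relative level on the VEGF, endoglin, transcription factor, Notch and sinusoid lists, at -0.20, -0.23, -0.20, -0.17 and -0.12. It was also the lowest for cardiomyocyte genes, at -0.89, and the dimmest array as a whole. Its median intensity was 22.5, where those of the other arrays lay between 24.6 and 26.7. The relative levels were not adjusted for this. Of the 20 cardiomyocyte genes 16 lay above 0, where 47.5% of all genes did, with a median of 0.64. Of these 20 genes, 5 had an unadjusted p under 0.05, all above 0, where 3.2% of all genes were higher. After adjustment 0 of the 20 passed, where 0.0495% of all genes did. The summed intensity of the 20 genes was 1359, 1428 and 1245 in knockout hearts a to c, against 1345, 586.8 and 776.0 in wildtype hearts. By this sum wildtype a lay among the knockout arrays. By the relative level it lay below all of them. That level was 0.542, 0.243 and 0.205 in knockout hearts a to c, against 0.014, -0.892 and -0.112 in wildtype. The part of heart muscle RNA in the medians of the vessel lists was not tested.

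**Figure D4:**
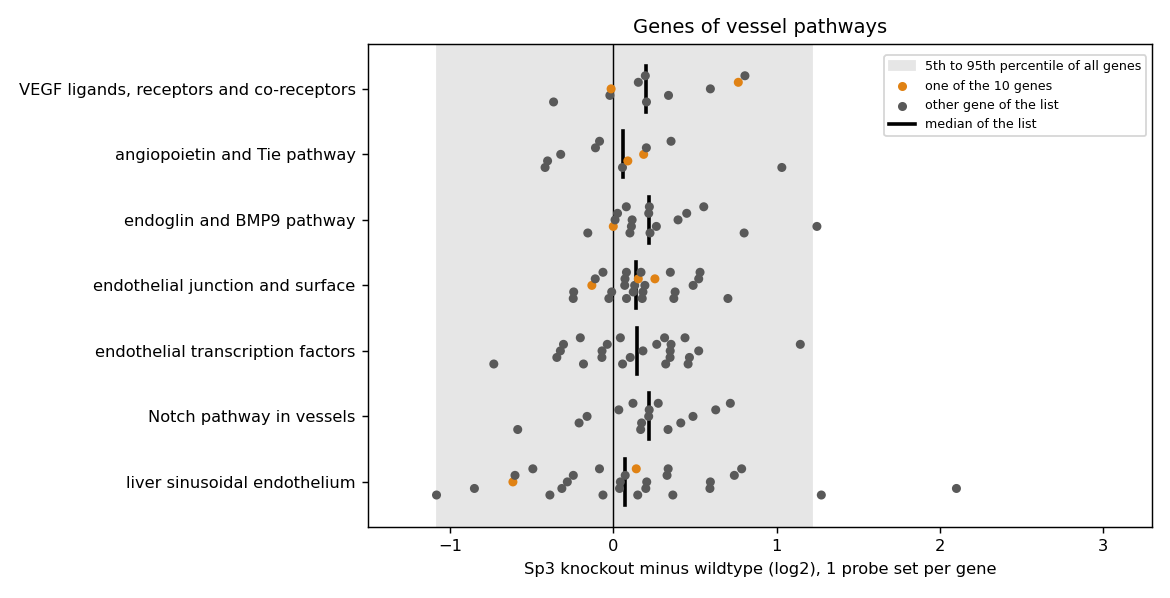
Difference of each measured gene in the 7 vessel lists, Sp3 knockout minus wildtype in log2 units (horizontal axis), 1 probe set per gene. Orange points are among the 10 genes described here, black lines are list medians and the grey band holds the 5th to 95th percentile of all genes, from -1.08 to 1.22. Nearly all points lie inside the band and list medians lie between 0.06 and 0.22. The band pools genes of all levels, and dim genes, which spread more, widen it. Lying inside it does not show that a bright gene is typical.

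Markers of neighbouring cells are given for comparison. Of the lymphatic list 6 of 8 measured genes lay above 0, with Lyve1 among the 2 below and a list median of 0.395. For 4 the unadjusted p was under 0.05, 3 above 0 and 1 below, where 3.2% of all genes were higher and 5.51% lower. The list also held 3 genes whose genotypes did not overlap, where 15.1% of all genes had that separation. Its brightest members were Reln, a secreted glycoprotein, at 10.58 ± 0.05 in knockout and 10.66 ± 0.02 in wildtype, and Nr2f2, a regulator of venous identity, at 8.53 ± 0.22 in knockout and 8.08 ± 0.26 in wildtype (SD over 3 arrays here and below). Of the endocardium list 10 of 12 lay above 0, and its brightest members were Cdh11, a cadherin of mesenchyme, at 8.77 ± 0.20 in knockout and 8.50 ± 0.35 in wildtype, and Hand2 at 8.508 ± 0.327 in knockout and 8.002 ± 0.344 in wildtype. In the pericyte, stellate and smooth muscle list 8 of 14 lay above 0 with a median of 0.04. Among 12 stem and progenitor genes 4 lay above 0, and of 10 megakaryocyte and platelet genes 6. Hepatocyte genes had 11 of 13 below 0, with Alb, serum albumin, at 13.16 ± 0.12 in knockout and 13.34 ± 0.07 in wildtype, and Afp, alpha-fetoprotein, at 13.28 ± 0.06 in knockout and 13.28 ± 0.03 in wildtype. Epicardium genes had 7 of 8 above 0. With limma 0 genes passed in these lists, where 0.0495% of all genes did.

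The genes of closest pattern across the 6 arrays were sought among 4548 bright genes, by Pearson correlation with the mean of each group. For the pan-endothelial mean they were Marcksl1, Phip, Naa30, Dhx30 and Gtf2i, with r from 0.983 to 0.989. For the mean of Stab2 and Lyve1 they were Kti12, Slc35a4, Metap1, Tmsb4x and Ccnf, with r from 0.987 to 0.992. Of the candidates, 99 and 298 had r of 0.9 or more with the pan-endothelial and the sinusoidal mean. Marcksl1 was highest in knockout c, at 10.65, and lowest in wildtype b, at 10.26. Metap1 was lowest in knockout c, at 9.89, and highest in wildtype a, at 10.40. These points share the arrays, so the values are descriptions.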

How the data were processed

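Single-heart total RNA from 3 Sp3 knockout and 3 wildtype fetuses was labelled with biotin in 1 cycle, per the labels. The authors deposited linear intensities. GCOS and RMA appear, without role or version, in the submitters' processing notes, so the authors' normalization is not known. Arrays differed in their median, and log2 was taken with no other step. Control probe sets (64) were dropped. Gene names came from the platform annotation, and a gene's probe set of highest mean stood for it in lists.

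Tests used R 4.3.3 and limma 3.58.1, lmFit and eBayes with an intensity trend and robust estimation, because spread falls steeply with level. Tests were two-sided, adjusted by Benjamini-Hochberg and called under 0.05 over 45037 probe sets. The fit was tested on simulated data. Each array is 1 fetus per the labels, and the number of arrays limits precision. The genes, lists and the choice of the trend were made with earlier results of these data known. Named genes are the 10 members, Sp3, the 2 of smallest unadjusted p per vessel list, the 2 brightest per marker list named, and the 5 closest in pattern. Mrc1, Nfatc1, Vsig4, Cd14, Dnase1l3, Cd209b and Cd4 fall outside this rule and were chosen after their values were seen. The alternatives tried were median centring, quantile normalization, no dim probe sets, no trend, the trend alone, the letter as a block, array weights, 16 units added before log2, averaging the probe sets of a gene, and each array left out.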

Additional observations from a re-analysis of the deposited data

How the results depend on the processing

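Under the 15 alternatives no endothelial probe set passed except 1 of Lyve1, with the letter as a replicate block. That fit gave Lyve1 a limma adjusted p of 0.0445, against 0.608, and over the other alternatives its adjusted p was higher, up to 0.941. The block called 52 probe sets higher and 206 lower, 1 member probe set and 2 genes of the vessel lists (Lyve1 and Aqp1). The letters are not known to pair the arrays: same-letter deviations from the group means correlated at 0.00955 for a, 0.308 for b and 0.436 for c, and knockout a was closest to wildtype b, at 0.128.

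Over all probe sets, the fit without a trend (limma) called 0 higher and 0 lower, with 2699 at an unadjusted p under 0.05 against 3225. Array weights called 18 lower, and averaging the probe sets of each gene 4 lower. Leaving out 1 array gave between 3 and 12 higher and between 0 and 12 lower, the lowest without knockout a. Sp3 lost its call without the trend and without knockout a.

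Differences that changed sign were not called, and they included Foxo1 (0.35 with all arrays and its brightest probe set), the Flt1 probe set at 0.33 and Emcn at 0.25. Kdr was 0.0315 with array weights and between -0.121 and 0.0703 with 1 array left out, and Eng was 0.0163 after quantile normalization, 0.055 over its probe sets and between -0.0678 and 0.0957 with 1 left out. Foxo1 was -0.0764 and Cdh5 0.0586 when their probe sets were averaged. With 1 array left out Emcn ran from -0.0252 to 0.55, and the dimmer Flt1 probe sets from -0.31 to 0.11, from -0.12 to 0.85 and from -0.10 to 0.54, the last at -0.10 with array weights too. The Stab2 gap to the pan-endothelial mean was 0.0271 after quantile normalization, 0.0042 over averaged probe sets and between -0.0674 and 0.0583 with 1 left out. The median of the angiopoietin list was -0.0205 after median centring, -0.002 with array weights and between -0.0213 and 0.059 with 1 left out, and that of the sinusoid list was -0.0038 after median centring and -0.0637 over averaged probe sets. Median centring moved the median difference of all probe sets to -0.056, against 0.02. It also lowered the medians of the VEGF, endoglin, junction, transcription factor and Notch lists, to 0.123, 0.14, 0.0652, 0.0658 and 0.14. The cause of these changes was not tested. The gap of Stab2 and Lyve1 together kept its sign, between -0.56 and -0.21 with 1 array left out, the smallest without knockout c. Dim probe sets limit the rest: the median residual SD was 0.939 in the class of the dimmer Cdh5 probe set and 0.169 in that of Lyve1.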
